A study of Mus musculus with 43 samples.

Results

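This comparison follows Stra8-knockout (Stra8-KO, here KO) mouse germ cell cultures from 4 to 8 h of retinoic acid (RA). It sets the 3 KO libraries at 8 h of RA against the 3 KO libraries at 4 h, each line (KO12, KO20 and KO21) against itself, so 6 of the 42 libraries in the deposited table are compared. The cultures were grown from THY1-positive testis cells of wild-type (WT) or KO mice, in serum-free medium that held GDNF, GFRA1 and FGF2. Beneath them lay feeder cells of the mouse fibroblast line STO, whose RNA may be in the libraries. They received all-trans RA, or DMSO as the solvent control, for 4, 8 or 24 h, or were taken untreated at 0 h. The WT cultures at 4 and 8 h of RA, the KO cultures at 8 h of DMSO and the untreated KO cultures serve here as further values. All of these groups share the growth factors and the feeders, and each holds 3 lines. RA is labelled as 0.01 M, a dose that these values cannot check. The sources used here give no strain or age of the mice and do not say which part of Stra8 was deleted. Whether each line came from a separate mouse is not stated either, so p-values speak for these lines only. They measure the spread that remains once each line's own level is taken out, pooled over the 36 libraries fitted together. Cultures at 8 h of RA had also been kept 4 h longer than those at 4 h. No DMSO library at 4 h was used, so changes that came with culture time alone cannot be removed from any value below and cannot be told apart from changes that came with RA.

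RA binds nuclear receptors (RARs, paired with RXRs) that sit on short repeated DNA elements, and in the testis it moves undifferentiated spermatogonia into differentiation and later into meiosis. Early direct targets include genes that limit RA itself (the CYP26 enzymes and DHRS3) and the receptor RARB. Kit, the receptor for KIT ligand, marks differentiating spermatogonia, and STRA8 is a germ cell transcription factor induced by RA and required for entry into meiosis. GDNF and FGF2 act in the other direction, through receptor tyrosine kinases and the ERK cascade, to keep spermatogonia undifferentiated, and immediate early genes such as Egr1 and Fos respond to that cascade within minutes.

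Promoter sequences are shown for 4 genes, of which Rarb, Cyp26a1 and Egr2 belong to the pathways above. Blvrb and Egr2 were chosen after their values were seen, so their motifs beside their changes are a description. They are RefSeq sequences (GRCm38.p6), 5′ to 3′ on the gene's strand, from 250 bases before to 50 bases after an annotated start. Capitals in the first 3 mark a DR5 element, which is a pair of hexamers 5 bases apart, searched on both strands. Each hexamer may be AGGTCA, may be GGGTCA, may be AGTTCA or may be GGTTCA. Capitals in the last mark a CArG box, the site of serum response factor, searched on both strands.
Rarb, chr14:16575427-16575726, minus strand: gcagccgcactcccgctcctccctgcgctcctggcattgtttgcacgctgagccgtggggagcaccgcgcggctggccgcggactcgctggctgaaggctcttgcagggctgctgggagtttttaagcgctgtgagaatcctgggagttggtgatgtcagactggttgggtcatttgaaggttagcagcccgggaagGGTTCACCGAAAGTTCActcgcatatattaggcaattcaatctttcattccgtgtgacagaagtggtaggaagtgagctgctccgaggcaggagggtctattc
Blvrb, chr7:27452168-27452467, plus strand: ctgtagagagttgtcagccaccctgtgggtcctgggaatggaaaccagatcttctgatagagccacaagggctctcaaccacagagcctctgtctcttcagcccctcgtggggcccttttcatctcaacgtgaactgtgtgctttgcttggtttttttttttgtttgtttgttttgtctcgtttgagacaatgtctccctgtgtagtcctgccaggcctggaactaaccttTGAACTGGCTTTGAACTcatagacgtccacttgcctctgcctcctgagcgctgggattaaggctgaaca
Cyp26a1, chr19:37697558-37697857, plus strand: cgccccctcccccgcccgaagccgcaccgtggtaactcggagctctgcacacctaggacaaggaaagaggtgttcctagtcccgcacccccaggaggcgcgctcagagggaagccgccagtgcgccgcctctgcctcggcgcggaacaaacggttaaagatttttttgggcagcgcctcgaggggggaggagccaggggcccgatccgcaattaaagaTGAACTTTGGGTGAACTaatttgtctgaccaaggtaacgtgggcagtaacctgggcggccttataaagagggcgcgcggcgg
Egr2, chr10:67537316-67537615, plus strand: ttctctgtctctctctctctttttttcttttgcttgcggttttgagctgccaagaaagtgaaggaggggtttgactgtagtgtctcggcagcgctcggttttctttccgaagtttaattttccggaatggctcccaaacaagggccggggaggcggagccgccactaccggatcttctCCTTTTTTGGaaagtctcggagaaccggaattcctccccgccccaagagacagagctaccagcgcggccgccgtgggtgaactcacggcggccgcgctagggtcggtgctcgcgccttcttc
The DR5 element starts 53 bases before the Rarb start, 19 before that of Blvrb and 32 before that of Cyp26a1, and the CArG box starts 72 bases before that of Egr2. These starts are those of the RefSeq windows. Blvrb has 2 windows, 1 of them with the element, and Egr2 has 5, of which 4 hold a box. The windows printed for Blvrb and Egr2 belong to starts downstream of the gene starts in the deposited table, 27447978 and 67535475. A DR5 element of these letters lay in 32 of the 32851 windows in the table, a share of 0.0974%, and in the windows of 6 tested genes. Rarb and Blvrb rose between 4 and 8 h, and the other 4, Cyp26a1 among them, did not pass the test. A CArG box lay in 1.63% of windows. Of 185 tested genes with one, 26 were called higher (14.1%) and 25 lower (13.5%), beside 9.26% and 7.96% of all genes tested and 9.75% and 8.59% of the 11519 tested genes with a window. Neither motif was found in the windows of Kit, Rec8, Tcerg1l, Ccdc88b, Rgl3, Stra8, Junb, Fos or Sema3a. A match is a description of the letters only.

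Levels below are the authors' deposited log2 values, scaled between libraries. A change is the level at 8 h minus the level at 4 h within lines, on the log2 scale with its standard error (SE, n = 3 lines). The SE rests on the spread pooled over the 36 libraries fitted together, not on the 3 KO lines alone. A gene was called when the p-value of limma's moderated test, adjusted by the Benjamini-Hochberg method over the 16259 genes tested, was below 0.05. Low genes are drawn to their mean in these values, so their changes are understated, and total reads per library are not kept, so the depth behind a value is unknown. The 6 libraries had medians of 8.78 to 8.87 over the genes tested. Nothing in the 6 libraries went against its label. Stra8 stood at 8.45, 8.36 and 8.35 at 4 h of RA and at 9.10, 8.51 and 8.63 at 8 h in KO12, KO20 and KO21, against 12.13 to 12.52 and 12.75 to 13.06 in WT at the same times. Untreated KO cultures had 6.31 to 6.49, so the KO locus (chromosome 6, 34920163 to 34939344, GRCm38) still gave reads that were higher under RA. The further change from 4 to 8 h was 0.36 ± 0.22 and did not pass the test (adjusted p = 0.298), although the groups did not overlap. It passed in a fit of the 6 libraries alone (adjusted p = 0.0171). Germ cell identity genes were high throughout. Ddx4 lay between 13.59 and 13.75, Dazl between 14.94 and 15.26 and Gfra1 between 13.58 and 13.77 in the 6 libraries. The RA markers Ccdc88b and Kit rose, and Rgl3 did not pass the test, as described next.

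Between 4 and 8 h, 2799 genes (17.2% of those tested) changed, 1505 of them higher (9.26%) and 1294 lower (7.96%). The median was 0.34 among called rises and -0.19 among called falls. A change of 2-fold or more was seen for 45 of the rises and 8 of the falls. Sema3a, Sdpr, Nr2f1 and Msln had the largest rises of all genes tested. The largest falls were of Mir6236, Gm15564, Gm42418 and Lars2, to which reads of ribosomal RNA are often assigned, and of Egr3. The median change of all genes was -1e-04. The 2 groups did not overlap for 4174 genes, 25.7% of those tested. The count of calls rests on the pairing by line and on all 3 lines. Without the line term, 1033 genes were called, 533 higher and 500 lower, and all 1033 were among the 2799. Leaving out KO12, KO20 or KO21 gave 1161, 1231 and 1200, and a fit of all 42 libraries, the DMSO libraries at 4 h among them, gave 576. The deposited column names of 2 of those added libraries, from WT25 and KO20, carry remarks that set them apart, and the remark on KO20 likens it to KO cultures after 24 h of RA. The part of these 2 libraries in the calls lost in that fit was not tested.

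**Figure D1:**
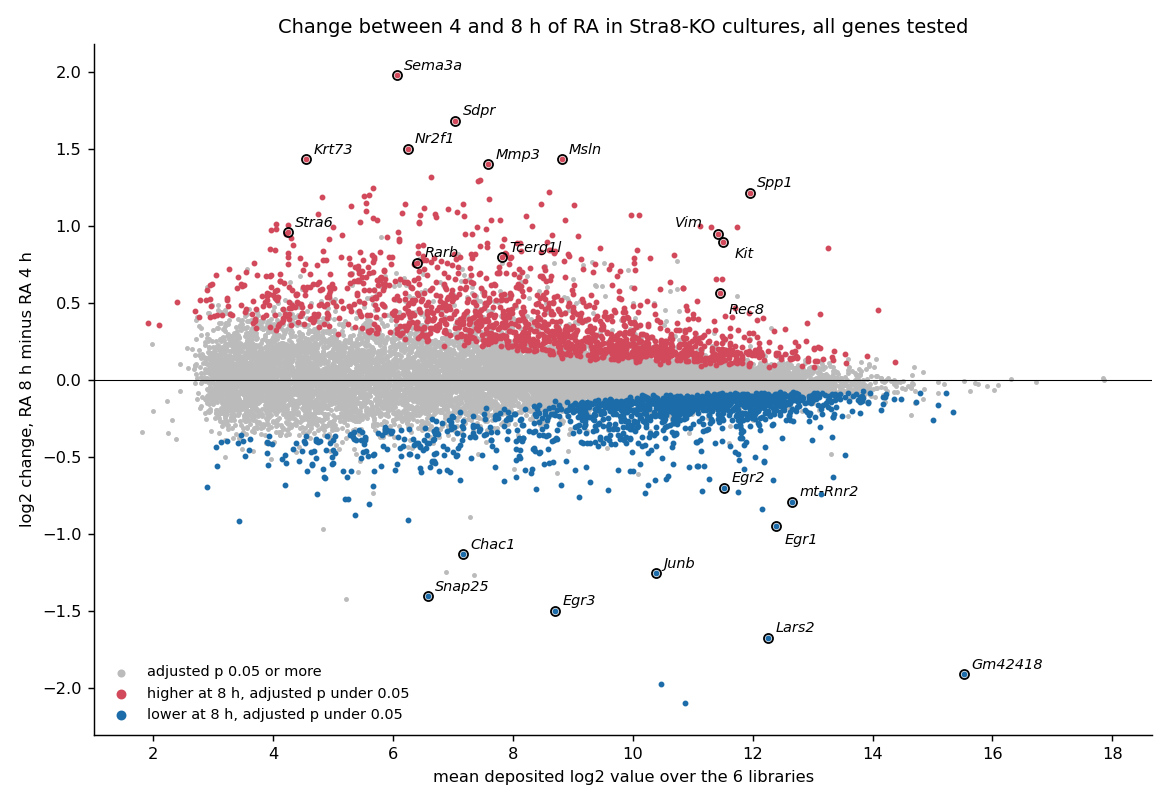
Log2 change between 4 and 8 h of RA (y axis) against the mean deposited log2 value over the 6 libraries (x axis) for each of the 16259 genes tested, red where called higher, blue where called lower and grey otherwise. Named genes are ringed, and Sema3a has the largest rise at 1.98. Called rises lie above 0 and called falls below it.

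RA markers, retinoid genes and RA targets differed in their course between 4 and 8 h. Kit, Rec8, Tcerg1l, Rarb, Ccdc88b and Stra6 rose, while Cyp26a1, Cyp26b1, Dhrs3 and Rgl3 did not pass the test. Blvrb, chosen after its values were seen, also rose. Kit (chromosome 5, 75574916 to 75656722) stood at 11.35, 11.01 and 10.84 at 4 h and at 12.18, 11.68 and 12.01 at 8 h. Every line was higher at 8 h and the groups did not overlap. The change was 0.90 ± 0.16 (1.86-fold, adjusted p = 0.000896), and the 24 h level was 0.96 above that at 8 h. Kit had been 9.35 untreated and 8.96 after 8 h of DMSO. Over all genes, 11.7% differed between RA and DMSO at 8 h (7.95% higher with RA and 3.78% lower), and 33.1% changed from 8 to 24 h of RA (16.6% higher and 16.5% lower). Rec8, a meiotic cohesin subunit (chromosome 14, 55618037 to 55625395), had 11.24, 11.13 and 11.14 at 4 h and 11.84, 11.69 and 11.68 at 8 h. The times did not overlap, and each line moved by a similar amount. Its change was 0.57 ± 0.05 (adjusted p = 7.74e-08). Tcerg1l, a gene that the study's title names, had 7.60, 7.58 and 7.09 at 4 h and 8.54, 8.04 and 8.08 at 8 h. It rose in all 3 lines, by 0.80 ± 0.14 (adjusted p = 0.000327).

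Of 15 tested RA receptors, binding proteins and coregulators, 2 were called higher and none lower, against 9.26% and 7.96% of all genes, and the median change was 0.05. Rarb, the RA receptor that RA itself induces (levels 6.34, 5.81 and 5.92 at 4 h, 7.21, 6.51 and 6.63 at 8 h), rose by 0.76 ± 0.16 (adjusted p = 0.00179). The groups did not overlap, and KO12 was the highest line at both times. Nrip1, a corepressor of nuclear receptors, rose by 0.41 ± 0.14 (adjusted p = 0.0397), a call that was lost under 9 of 13 alternatives. Rara changed by 0.03 and Rarg by 0.12 without passing the test. Of 16 tested genes of retinoid metabolism and transport, 4 were called higher (25%) and none lower, with a median of 0.03. Stra6, the cell surface receptor for retinol-binding protein, had 3.53, 4.11 and 3.67 at 4 h and 4.74, 5.06 and 4.39 at 8 h. It rose by 0.96 ± 0.19 (adjusted p = 0.00105), from a low level. Adh7, an alcohol dehydrogenase that oxidises retinol, rose by 0.68 ± 0.20. Bco1, which cleaves beta-carotene to retinal, rose by 0.41 ± 0.13, although KO12 had 5.60 at both times. Both calls were lost without the line term.

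The genes that limit RA did not pass the test between these times. Cyp26a1, an enzyme that degrades RA, stood at 9.02, 8.70 and 8.79 at 4 h and at 9.31, 8.95 and 8.84 at 8 h, against 5.18 untreated. The groups overlapped, and the change of 0.20 ± 0.18 did not pass the test (adjusted p = 0.503). Its difference from DMSO at 8 h was 3.72. Dhrs3, which reduces retinal to retinol, changed by 0.09 ± 0.11 (adjusted p = 0.633), and its difference from DMSO at 8 h was 0.91. Cyp26b1, the other CYP26 enzyme measured, lay between 4.21 and 4.60 at 4 h and between 4.51 and 4.75 at 8 h and changed by 0.20 ± 0.19 (adjusted p = 0.495). It was 1.81 higher at 24 h than at 8 h (adjusted p = 6.96e-08).

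Ccdc88b, which encodes a coiled-coil protein of the hook-related family, had 9.29, 9.51 and 9.24 at 4 h and 9.97, 10.14 and 9.77 at 8 h, against 5.66 untreated. Every 8 h value lay above every 4 h value, and the change was 0.61 ± 0.14 (adjusted p = 0.00339). Rgl3, a member of the Ral guanine nucleotide exchange factor family, had 8.77, 8.80 and 8.71 at 4 h and 9.02, 9.16 and 9.18 at 8 h, against 6.16 untreated. The groups did not overlap, but the change of 0.36 ± 0.18 did not pass the test over the 36 libraries (adjusted p = 0.169). It passed when KO libraries alone were fitted (adjusted p = 0.0379) and when the 6 libraries alone were fitted (adjusted p = 0.00214). Blvrb, biliverdin reductase B, had 7.44, 7.64 and 7.59 at 4 h and 8.30, 8.31 and 8.44 at 8 h. It rose by 0.79 ± 0.11 (adjusted p = 1.73e-05), and its groups did not overlap. All of the calls named so far among RA markers and retinoid genes were lost in the fit of all 42 libraries.

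**Figure D2:**
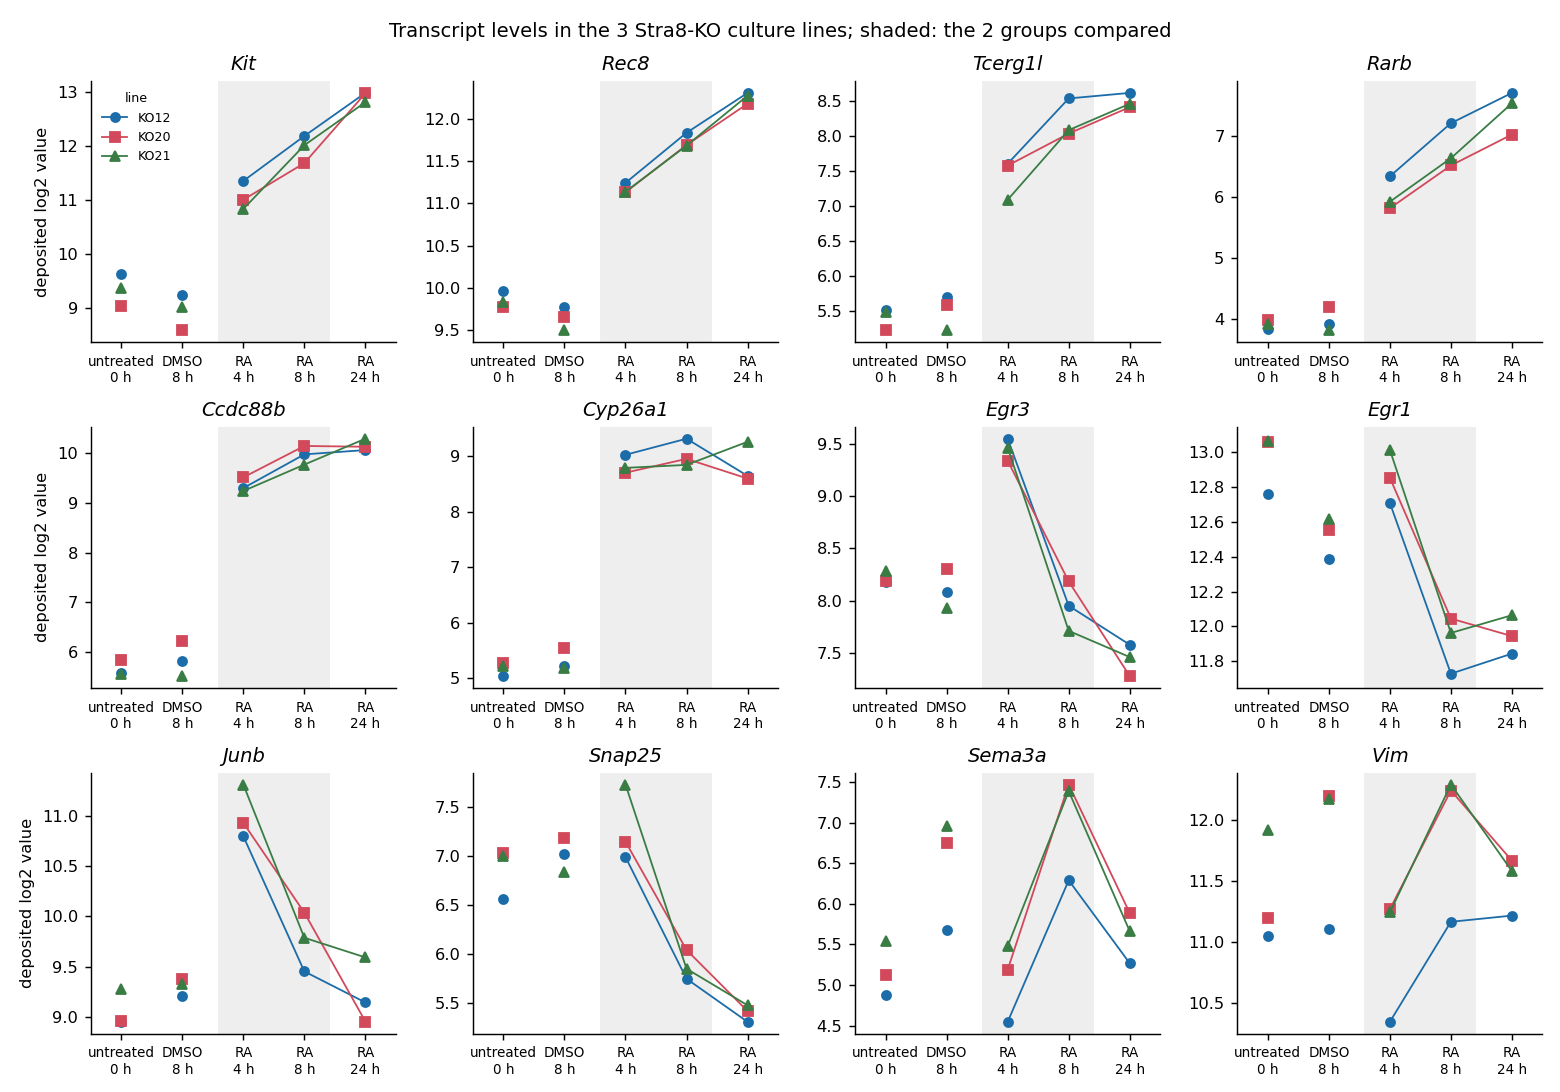
Deposited log2 level (y axis) of 12 genes in each KO line at 0 h untreated, 8 h of DMSO and 4, 8 and 24 h of RA (x axis), one marker per library, with lines joining the RA times of a culture line and the 2 groups compared shaded. Kit, Rec8, Tcerg1l and Rarb climb through the shaded times, Egr3, Egr1, Junb and Snap25 drop, and Sema3a and Vim are lower in KO12 than in KO20 and KO21.

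Some genes that rose between 4 and 8 h were also far above DMSO at 8 h. The following were chosen for that difference after their values were seen, so the values are a description. Krt73, a keratin gene of the hair follicle sheath, had 4.03, 3.84 and 3.63 at 4 h and 5.63, 5.23 and 4.94 at 8 h. Its change was 1.43 ± 0.14, and its level was 6.70 at 24 h. Tmprss6, a membrane serine protease that regulates iron uptake in liver, changed by 1.18 ± 0.16. Tm4sf5, a tetraspan membrane protein, changed by 1.14 ± 0.17, and Tinagl1, a secreted matrix protein, by 1.13 ± 0.16. The difference between RA and DMSO at 8 h was 2.19 for Krt73, 2.23 for Tmprss6, 2.26 for Tm4sf5 and 2.37 for Tinagl1. Mab21l3 changed by 0.68 ± 0.15 and Gdap1l1 by 0.59 ± 0.15, with 8 h differences from DMSO of 2.42 and 2.81. None of these 6 passed the test between DMSO at 8 h and untreated cultures, where they changed by -0.15 to 0.14.

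Of 28 tested genes of differentiating spermatogonia, 7 were called higher (25%) and 4 lower (14.3%), beside 9.26% and 7.96% of all genes. The median change was 0.05. Beside Kit, Rec8 and Tcerg1l, the rises included Dmrtb1, a DM-domain factor of spermatogonia, at 0.51 ± 0.08 (adjusted p = 0.00012). Kitl rose by 0.39. It encodes KIT ligand and not the receptor that marks these cells, and which cells gave its reads was not tested. Dmrt1, a further DM-domain factor, rose by 0.18. The falls were Nol4 at -0.57 ± 0.14 (adjusted p = 0.00659), Ccnd2 at -0.26, Dazl at -0.16 and Ddx4 at -0.10. Ddx4 lost its call under 11 of 13 alternatives. Of 39 tested genes of meiotic prophase, 2 were called higher (Rec8 and Gm4969, 5.13%) and 5 lower (12.8%), with a median of -0.07. Gm4969 (Meiosin), which encodes a partner of STRA8, rose by 0.31 ± 0.08 (adjusted p = 0.0102). It was 0.71 higher at 24 h than at 8 h. The falls were Spata22 at -0.31 ± 0.10 (adjusted p = 0.0406), Rad21l at -0.24, Dazl at -0.16, Tex14 at -0.15 and Mael at -0.14. Spata22 changed by only -0.02 in KO20 and lost its call under 8 of 13 alternatives. The axis and recombination genes Sycp3 (-0.07), Dmc1 (-0.09), Spo11 (-0.37) and Prdm9 (0.01) did not pass the test.

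Of 32 tested immediate early genes, 14 fell, none was called higher and the others did not pass the test. Egr3, Junb, Egr1, Egr2 and Zfp36 led the falls, which were 43.8% of the list beside 7.96% of all genes, and the median change was -0.22. With all 42 libraries 9 members were called lower, without the line term 11, and without KO12, KO20 or KO21 10, 11 and 12. Egr3, an early growth response zinc finger factor (chromosome 14, 70077445 to 70080157), stood at 9.55, 9.34 and 9.46 at 4 h and at 7.95, 8.18 and 7.71 at 8 h. All 3 lines dropped, and the change was -1.50 ± 0.18 (2.83-fold lower, adjusted p = 7.73e-06). Its level at 4 h was above those of untreated cultures (8.18 to 8.28) and of DMSO at 8 h (7.93 to 8.30), and its 8 h values lay in or below those ranges. Junb, an AP-1 subunit, had 10.80, 10.93 and 11.31 at 4 h and 9.45, 10.04 and 9.79 at 8 h, with 8.95 to 9.27 untreated and 9.21 to 9.38 in DMSO. Its 8 h values thus lay above both ranges, but the difference from DMSO at 8 h, 0.46 ± 0.20, did not pass the test (adjusted p = 0.167). Junb fell by 1.26 ± 0.20 on the log2 scale between 4 and 8 h (adjusted p = 0.00023).

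Egr1 and Egr2 had another course, since their 4 h levels were close to those of untreated cultures. Egr1 was 12.71, 12.85 and 13.01 at 4 h and 11.73, 12.05 and 11.96 at 8 h, beside 12.76 to 13.06 untreated. It fell by 0.95 ± 0.07 on the log2 scale (adjusted p = 3.14e-08), and it also fell in the DMSO cultures between 0 and 8 h, by 0.44 (adjusted p = 0.000333). Egr2, 1 of whose promoter windows with a CArG box is printed above, was 11.74, 11.79 and 12.09 at 4 h and 11.10, 11.25 and 11.16 at 8 h. The groups did not overlap, and the change was -0.70 ± 0.12 (adjusted p = 0.00042). Zfp36, which makes AU-rich mRNAs decay, fell by 0.65 ± 0.09 (adjusted p = 6.37e-05). Nr4a1 changed by -0.55, Ier2 by -0.51, Maff by -0.46 and Fos by -0.38, all of them called. Jun (0.20), Myc (0.04), Dusp1 (-0.10) and Atf3 (-0.26) did not pass the test. In the DMSO cultures between 0 and 8 h, the same list had 8 members called higher and 1 lower. Of all genes, 7.6% and 6.87% were called there.

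Of 35 tested targets of GDNF and FGF signalling, 16 were called lower (45.7%) and 3 higher (8.57%), with a median of -0.21. The shares of all genes were 7.96% and 9.26%. This list and that of immediate early genes share Egr1, Egr2, Egr3, Fos and others. Dusp6, a phosphatase that switches off ERK, was 12.70, 12.57 and 12.75 at 4 h and 12.01, 12.13 and 11.91 at 8 h. It fell in each line, by 0.65 ± 0.09 (adjusted p = 7.67e-05). Phlda1 fell by 0.68 ± 0.10 (adjusted p = 6.21e-05), and Spry4, an inhibitor of receptor tyrosine kinase signalling, changed by -0.48. Bcl6b and Lhx1, factors that GDNF maintains in cultured spermatogonia, also fell. Bcl6b went from 13.37, 13.83 and 13.79 to 12.87, 13.23 and 12.99, a change of -0.63 ± 0.13 (adjusted p = 0.00209). Lhx1 changed by -0.56 ± 0.14 (adjusted p = 0.00915). Etv1, an ETS factor, rose by 0.75 ± 0.25 (adjusted p = 0.0376), a call lost without the line term. Etv5 (-0.15), Myc and Mycn (0.13) did not pass the test, nor did Gfra1, the GDNF co-receptor (-0.09 ± 0.07, adjusted p = 0.452).

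Of 39 tested genes of undifferentiated spermatogonia, 12 were called lower (30.8%) and 1 higher (2.56%), with a median of -0.13. The shares of all genes were 7.96% and 9.26%. Without the line term 7 were called lower, and with all 42 libraries 2 were. Beside Bcl6b and Lhx1, Eomes changed by -0.44, Tspan8 and Epcam by -0.38 each, Etv4 by -0.25 and Ret, the GDNF receptor kinase, by -0.24. Zbtb16 (PLZF), a transcriptional repressor of undifferentiated cells, had 13.23, 13.12 and 13.16 at 4 h and 13.02, 12.96 and 13.03 at 8 h. The groups did not overlap, but the change of -0.17 ± 0.06 was near the threshold (adjusted p = 0.0447) and lost its call under 9 of 13 alternatives. Nanos2, an RNA-binding protein that holds spermatogonia undifferentiated, had 8.28, 7.75 and 7.92 at 4 h and 7.74, 7.72 and 7.88 at 8 h. Its groups overlapped, and the change of -0.20 ± 0.17 did not pass the test (adjusted p = 0.448). Thy1, the surface marker by which the cells were first enriched and which fibroblasts also carry, was the member that rose, by 0.66 ± 0.19 (adjusted p = 0.0193). Of 26 tested genes of the piRNA pathway and germ granules, 13 were called lower (50%) and 2 higher (7.69%), with a median of -0.14. The called falls were small, from -0.10 to -0.29. Tdrd5 changed by -0.29 ± 0.06 (adjusted p = 0.00122), Piwil4 by -0.29 ± 0.06 (adjusted p = 0.00189) and Gtsf1 by -0.27. Mybl1, the transcription factor of pachytene piRNA genes, rose by 0.40 ± 0.10. Without the line term, 3 of the 13 falls were called. In the DMSO cultures between 0 and 8 h, 9 members of this list were lower and 1 higher, beside 6.87% and 7.6% of all genes.

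**Figure D3:**
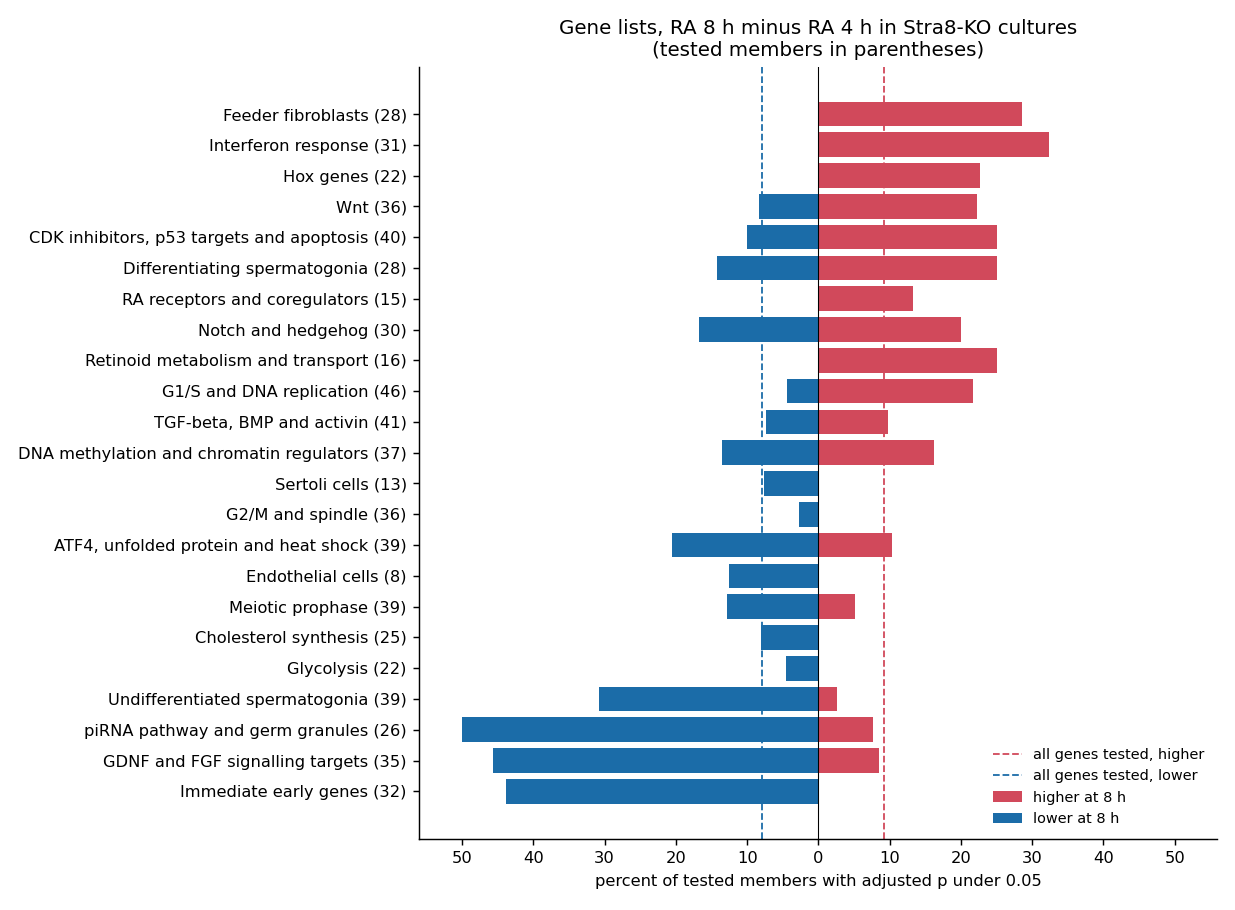
Percent of tested members called higher (red, right) or lower (blue, left) at 8 h of RA for each list with 8 or more tested members (y axis, number tested in parentheses), ordered by median change. Dashed lines mark the shares of all genes tested, 9.26% higher and 7.96% lower; immediate early genes, GDNF and FGF targets and piRNA genes reach 43.8% to 50% lower.

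Cell cycle genes moved in part. Of 46 tested genes of G1/S and DNA replication, 10 were called higher (21.7%) and 2 lower (4.35%), with a median of 0.03. The shares of all genes were 9.26% and 7.96%. Cdk6, a partner of D-type cyclins, was 8.36, 8.39 and 8.28 at 4 h and 8.72, 8.88 and 8.93 at 8 h. It rose by 0.50 ± 0.11 (adjusted p = 0.00202). Pola1, the catalytic subunit of DNA polymerase alpha, rose by 0.48 ± 0.08 (adjusted p = 0.000139) and Chaf1b, of the chromatin assembly factor CAF-1, by 0.48 ± 0.07 (adjusted p = 7.78e-05). The Mcm2 to Mcm7 helicase genes changed by -0.04 to 0.04, and none passed the test. Ccnd1 rose by 0.40 while Ccnd2 changed by -0.26. Of 36 tested genes of G2/M and the spindle, none was called higher and 1 lower (2.78%). It was Cdc20, which activates the anaphase-promoting complex, at -0.19 ± 0.06 (adjusted p = 0.0189). Of 40 CDK inhibitors, p53 targets and apoptosis genes, 10 were higher (25%) and 4 lower (10%), with a median of 0.08. Casp8 rose by 0.63 ± 0.17, Eda2r by 0.54 ± 0.12 and Zmat3 by 0.53 ± 0.13, whereas Cdkn1a, encoding p21, changed by -0.39. Without the line term, 1 of these 10 rises was called.

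Of 37 regulators of DNA methylation and chromatin, 6 were called higher (16.2%) and 5 lower (13.5%), beside 9.26% and 7.96% of all genes. The median change was -0.01. Without the line term 1 was called higher and 3 lower, and with all 42 libraries none was called. Tet2, an enzyme that oxidises 5-methylcytosine, had 6.19, 6.60 and 6.46 at 4 h and 7.28, 7.26 and 7.04 at 8 h. It rose by 0.77 ± 0.17 (adjusted p = 0.00303). Tet1 rose by 0.50 ± 0.12 (adjusted p = 0.00647) and Kdm6b, an H3K27 demethylase, fell by 0.24 ± 0.05 (adjusted p = 0.0013). The methyltransferases Dnmt1 (-0.05), Dnmt3a (0.06) and Dnmt3b (0.09) did not pass the test. Of 39 genes of the ATF4 pathway, the unfolded protein response and heat shock, 4 were higher (10.3%) and 8 lower (20.5%). Their median was -0.03. Without the line term 3 were called lower, and with all 42 libraries 1 was. Chac1, a glutathione-degrading enzyme induced by ATF4, went from 7.67, 7.80 and 7.73 to 6.40, 6.69 and 6.71. The drop was seen in each line and came to -1.13 ± 0.14 (adjusted p = 6.33e-06). Atf4 and Ddit3 changed by -0.38 each and Herpud1 by -0.41 ± 0.08 (adjusted p = 0.000764), while Asns (-0.03) and Trib3 (-0.10) did not pass the test. Cebpb rose by 0.54 ± 0.14. Glycolysis genes gave 1 fall among 22 tested (4.55%), Pfkl at -0.47 ± 0.15 (adjusted p = 0.039). Pfkl lost its call under 7 of 13 alternatives. Cholesterol synthesis genes gave 2 falls among 25 (8%), with Hmgcs1 at -0.23 ± 0.08.

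Of 36 tested Wnt pathway genes, 8 were higher (22.2%, beside 9.26% of all genes) and 3 lower (8.33%, beside 7.96%), with a median of 0.12. Without the line term 3 were called higher, and with all 42 libraries 1 was. The ligands Wnt7b (0.56 ± 0.14, adjusted p = 0.00834) and Wnt7a (0.54 ± 0.16, adjusted p = 0.017) rose, and Wnt2 fell by 0.40 ± 0.12. Wnt7b was 2.24 above DMSO at 8 h and 1.15 higher again at 24 h. Of 30 Notch and hedgehog genes, 6 were higher (20%) and 5 lower (16.7%). Without the line term none of them was called higher and 1 lower, and the same held with all 42 libraries. Leaving out any KO line left 1 called higher. Notch1, a Notch receptor, was 12.29, 12.50 and 12.55 at 4 h and 11.90, 12.02 and 11.83 at 8 h, a fall of 0.53 ± 0.09 (adjusted p = 0.00031). Its groups did not overlap. Dtx4, of the Deltex family of ubiquitin ligases, rose by 0.55 ± 0.17 and the ligand Ihh fell by 0.49 ± 0.12. Of 41 genes of TGF-beta, BMP and activin signalling, 4 were higher (9.76%) and 3 lower (7.32%), close to the shares of all genes, with a median of 0.02. They included the BMP antagonist Grem1 at 1.30 ± 0.30, the protease Bmp1 at 0.70 ± 0.19 and Smad3, the signal transducer of TGF-beta and activin, at 0.60 ± 0.09 (adjusted p = 0.000106).

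Of 22 tested Hox genes and Hox cofactors, 5 were called higher (22.7%, beside 9.26% of all genes) and none lower, with a median of 0.15. Meis1, a cofactor, had 4.82, 5.23 and 5.59 at 4 h and 5.84, 6.48 and 6.45 at 8 h. It rose by 1.04 ± 0.22 (adjusted p = 0.00206), and its untreated mean of 6.30 lay within the 8 h range. Hoxa5 rose by 0.92 ± 0.23, Meis2 by 0.64 ± 0.22 and Hoxa4, from levels under 3, by 0.52 ± 0.15. None of the 5 was called without the line term. Of 31 interferon response genes, 10 were higher and none lower, a share of 32.3% beside 9.26%, with a median of 0.15. Ifit2 rose by 0.66 ± 0.20 (adjusted p = 0.0248), Oasl2 by 0.51 ± 0.11 (adjusted p = 0.00308) and Ifi35 by 0.51 ± 0.12 (adjusted p = 0.00493). Isg15 (0.07) and Irf7 (0.07) did not pass the test. Without the line term 2 of the 10 were called, and with all 42 libraries none.

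The largest rises by size were mostly of genes that fibroblasts and other mesenchymal cells are known to express. Sema3a, a secreted guidance cue (chromosome 5, 13125414 to 13602565), had 4.55, 5.19 and 5.48 at 4 h and 6.29, 7.47 and 7.39 at 8 h. KO12 was the lowest line at both times, each line rose, and the groups did not overlap. The change was 1.98 ± 0.29 (3.94-fold, adjusted p = 8.45e-05). In DMSO cultures Sema3a also rose, by 1.27 between 0 and 8 h (adjusted p = 0.00496), and RA and DMSO at 8 h differed by 0.59 (adjusted p = 0.231). Sdpr, a caveolar protein, changed by 1.68 ± 0.31, Nr2f1, the nuclear receptor COUP-TF1, by 1.50 ± 0.24, Msln, mesothelin, by 1.43 ± 0.28 and Mmp3, a matrix metalloproteinase, by 1.40 ± 0.32. Gja1 (connexin 43) changed by 1.31 ± 0.25, Apln (the ligand apelin) by 1.29 ± 0.40, Il33 (an alarmin cytokine) by 1.25 ± 0.27, Tm4sf1 by 1.22 ± 0.27 and Ankrd1, a target of YAP, by 1.20 ± 0.30. The values of Gja1, Grem1, Apln and Tm4sf1 overlapped between the times because KO12 was low at both. Spp1, osteopontin, was the highest of them, at 10.83, 11.77 and 11.44 at 4 h and 12.04, 12.92 and 12.73 at 8 h. It rose by 1.21 ± 0.18 (adjusted p = 0.000174) and was also 0.96 above DMSO at 8 h (adjusted p = 0.00093). For the other 11 of these 12 genes, RA and DMSO at 8 h differed by -0.03 to 0.86 and did not pass the test. Gja1, Grem1, Il33, Tm4sf1, Spp1 and Ankrd1 rose with Sema3a between 0 h and 8 h of DMSO.

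The feeder fibroblast list moved with these rises. Its 29 genes, none listed at 0, summed on the linear scale to 36.3, 54.7 and 52.6 at 4 h in KO12, KO20 and KO21, and to 48.0, 77.1 and 63.1 at 8 h, in units of 1000. Each line was higher at 8 h, with overlap between lines. The sums were 45.4 to 71.8 after 8 h of DMSO and 47.5 to 82.1 untreated. Of 28 tested members, 8 were called higher (28.6%, beside 9.26% of all genes) and none lower, with a median of 0.45. Among the 8 were S100a4 at 1.02 ± 0.21, Vim at 0.94 ± 0.29, Timp2 at 0.84 ± 0.26 and Fn1 at 0.45 ± 0.15. None of the 8 was called without the line term. Col1a1 (-0.01), Sparc (0.34) and Col3a1 (0.54) did not pass the test. The part of this sum in the rises above was not tested. In bulk RNA, more or fewer cells of a type and more or less RNA per cell cannot be told apart. The 6 germ cell identity genes (Ddx4, Dazl, Zbtb16, Gfra1, Ret and Nanos2) summed to 80.5 to 85.1 at 4 h and to 72.4 to 76.5 at 8 h, and these ranges did not overlap. The sum had been 83.9 to 85.0 untreated and 75.4 to 77.4 after 8 h of DMSO. Ddx4, Dazl, Zbtb16 and Ret are in this sum and also among the falls above, so for them the sum is no separate observation. Its part in the other falls of germ cell genes was not tested.

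**Figure D4:**
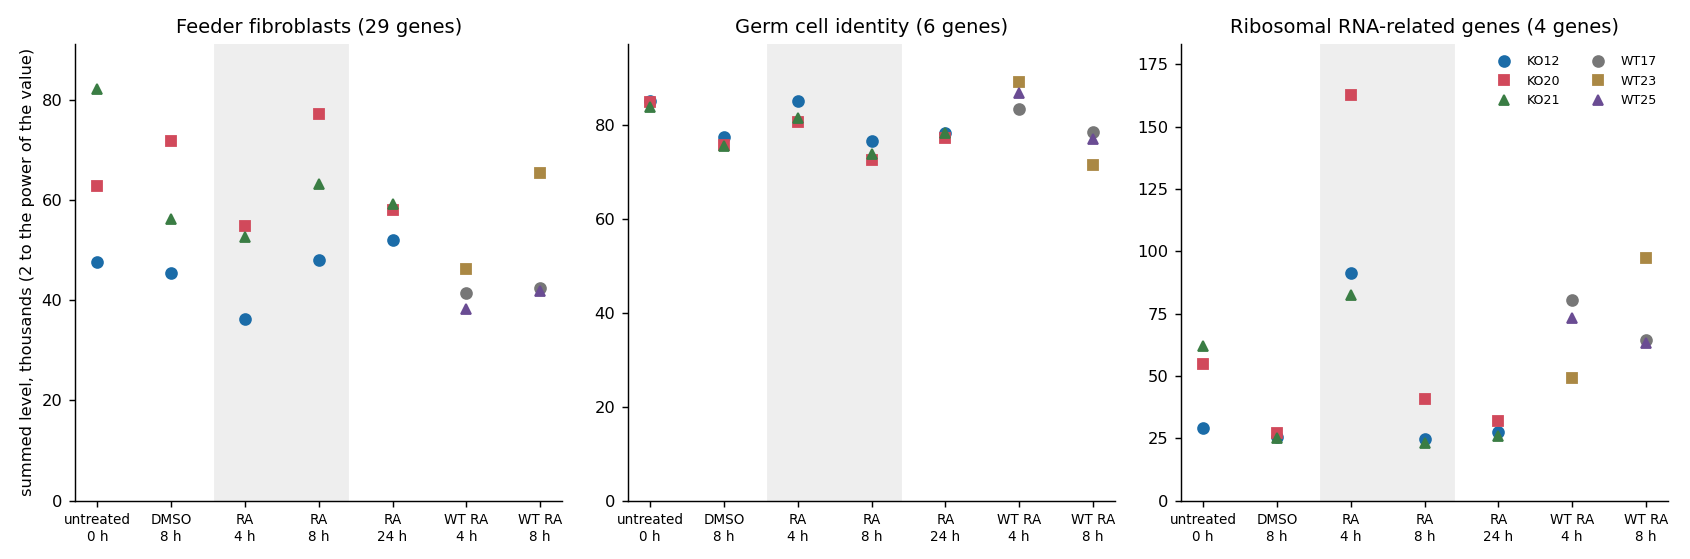
Summed level on the linear scale (y axis, in units of 1000) of the feeder fibroblast list, 6 germ cell identity genes and 4 genes related to ribosomal RNA in each library of KO (0 h untreated, 8 h of DMSO, 4, 8 and 24 h of RA) and WT (4 and 8 h of RA) cultures, one marker per library, with the 2 KO groups compared shaded. From 4 to 8 h of RA the KO feeder sums rise in each line, the germ cell sums go from 80.5 to 85.1 down to 72.4 to 76.5, and the ribosomal sums drop from at least 82.5 to at most 40.8.

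Markers of other testis cells were measured by the same sums. At 4 and 8 h they were 0.424 to 0.461 and 0.429 to 0.468 for Leydig cells, 1.34 to 1.54 and 1.11 to 1.31 for peritubular myoid cells, 1.73 to 1.90 and 1.38 to 1.72 for endothelial cells, and 0.260 to 0.291 and 0.255 to 0.306 for spermatids. Sertoli cell genes summed to 16.1 to 17.9 at 4 h and 15.7 to 16.6 at 8 h. The macrophage genes summed to 2.64 in KO21 at 4 h, and to 0.560 and 0.590 in the other lines at that time and 0.468 to 0.720 at 8 h. In these marker lists, 1 entry was listed at 0, which is 1 of the 2 entries the table has for Itgam. Other members stood too low to be tested, so a sum rests on its higher members. Tested were 13 of 18 Sertoli, 4 of 9 Leydig, 4 of 7 peritubular myoid and 4 of 10 macrophage genes. For endothelial cells and spermatids it was 8 of 10 and 5 of 13. Those not tested include Amh and Fshr (Sertoli), Insl3 and Cyp17a1 (Leydig), Adgre1 and Csf1r (macrophages) and Prm1 (spermatids). Called members of these lists were Inhbb at -0.58, Star at -0.48, Smtn at -0.37 and Myh11 at 0.37, Mrc1 at -0.59 and Ptprc at -0.38, and Flt1 at -0.40. No spermatid gene was called, and the most abundant, Izumo1 and Spaca1, changed by 0.04 and -0.10.

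Transcripts related to ribosomal RNA were lower at 8 h. Lars2, the mitochondrial leucyl-tRNA synthetase gene, to which reads of ribosomal RNA are often assigned in mouse, had 12.91, 13.61 and 12.76 at 4 h and 11.31, 11.69 and 11.27 at 8 h. KO20 was the highest at both times, and the groups did not overlap. The change was -1.68 ± 0.44 (adjusted p = 0.0131), and leaving out any of the 3 lines ended the call. Gm42418, a predicted gene that overlaps a ribosomal RNA repeat, changed by -1.91 ± 0.50 (adjusted p = 0.0121), and the mitochondrial ribosomal RNA genes mt-Rnr1 and mt-Rnr2 by -0.84 ± 0.24 and -0.79 ± 0.24. The sum of Gm42418, Gm15564, Mir6236 and Lars2 was 91.4, 163 and 82.5 at 4 h and 24.9, 40.8 and 23.3 at 8 h. It was 29.0 to 61.9 in untreated and 25.0 to 27.3 in DMSO cultures at 8 h. The 4 h RA libraries therefore stood above the other KO libraries shown, and the part of this difference between libraries in any other change was not tested. Further falls named by size were Snap25, a synaptic SNARE protein, Cd300lb, an immune receptor, Trpv3, a cation channel, Nxnl2 and Cpne7. Snap25 was 6.99, 7.15 and 7.73 at 4 h and 5.75, 6.04 and 5.85 at 8 h. All lines dropped to below the untreated range of 6.56 to 7.03, by 1.41 ± 0.17 on the log2 scale (adjusted p = 3.11e-06). Cd300lb changed by -0.91 ± 0.19, Trpv3 by -0.88 ± 0.13, Nxnl2 by -0.81 ± 0.16 and Cpne7 by -0.76 ± 0.11. Cd300lb, Trpv3 and Cpne7 had been lower in untreated cultures (5.06, 4.75 and 8.35) than at 4 h of RA.

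Cultures in DMSO without RA, from 0 to 8 h, are the nearest values on culture time, over another interval. There 2352 genes (14.5%) changed, 1235 higher (7.6%) and 1117 lower (6.87%). Leaving out KO20 left 621, and 787 were called without the line term. This comparison shares no library with the 8 h against 4 h comparison. Of the 1505 genes that rose between 4 and 8 h of RA, 272 also rose in it, which is 18.1% of the former and 22% of the latter, and 63 fell. Of the 1294 that fell, 152 also fell in it, 11.7% and 13.6% of the lists, and 104 rose. Among genes described above, Kit, Rec8, Rarb, Egr3, Junb, Dusp6, Bcl6b and Notch1 had DMSO changes of -0.39, -0.21, 0.06, -0.11, 0.24, -0.06, 0.08 and 0.05. Of these only Rec8 passed that test, and it went the other way from its change under RA. Other described genes passed it in the direction of their change under RA, among them Egr1 (-0.44), Sema3a (1.27), Gja1 (1.32), Grem1 (1.67), Tm4sf1 (1.56), Il33 (1.13) and Spp1 (0.87). Cd300lb (0.61), Trpv3 (0.40), Dtx1 (-0.34) and Bco1 (-0.39) passed it in the opposite direction. The part of culture time in any of these changes was not tested.

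WT cultures, with Stra8, give the same comparison in the other genotype. In WT, 3072 genes (18.9%) changed between 4 and 8 h of RA, 1234 higher (7.59%) and 1838 lower (11.3%). Of the KO rises, 563 also rose in WT, 37.4% of the KO list and 45.6% of the WT list. Of the KO falls, 729 also fell in WT, 56.3% and 39.7% of the lists. A further 36 genes rose in KO and fell in WT, and none did the reverse. The difference between the genotypes' changes was tested directly. It was called for 201 genes (1.24%), 195 with a more positive change in KO (1.2%) and 6 with a more negative one (0.0369%). This count rests on the pairing and on the choice of libraries, since 4 were called without the line term and 3 with all 42 libraries. Without KO12, KO20 or KO21 it was 90, 96 and 63, and without WT17 or WT25 110 and 121. Among the 195 genes the median change was 0.15 in KO and -0.33 in WT. WT called a fall for 146 of them and KO a rise for 85. In 101 the KO change did not pass its test and WT fell, and in 47 KO rose and the WT change did not pass. By list, immediate early genes had 14 falls in WT beside 14 in KO, GDNF and FGF targets 18 beside 16, piRNA genes 14 beside 13 and undifferentiated spermatogonia genes 26 beside 12, with list medians of -0.29, -0.34, -0.13 and -0.32 in WT. Of the undifferentiated list 2 genes had a called difference, Neurog3 at 0.61 and Sall4 at 0.34, and the difference of Zbtb16 (0.25) and that of Nanos2 (0.66) did not pass the test.

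**Figure D5:**
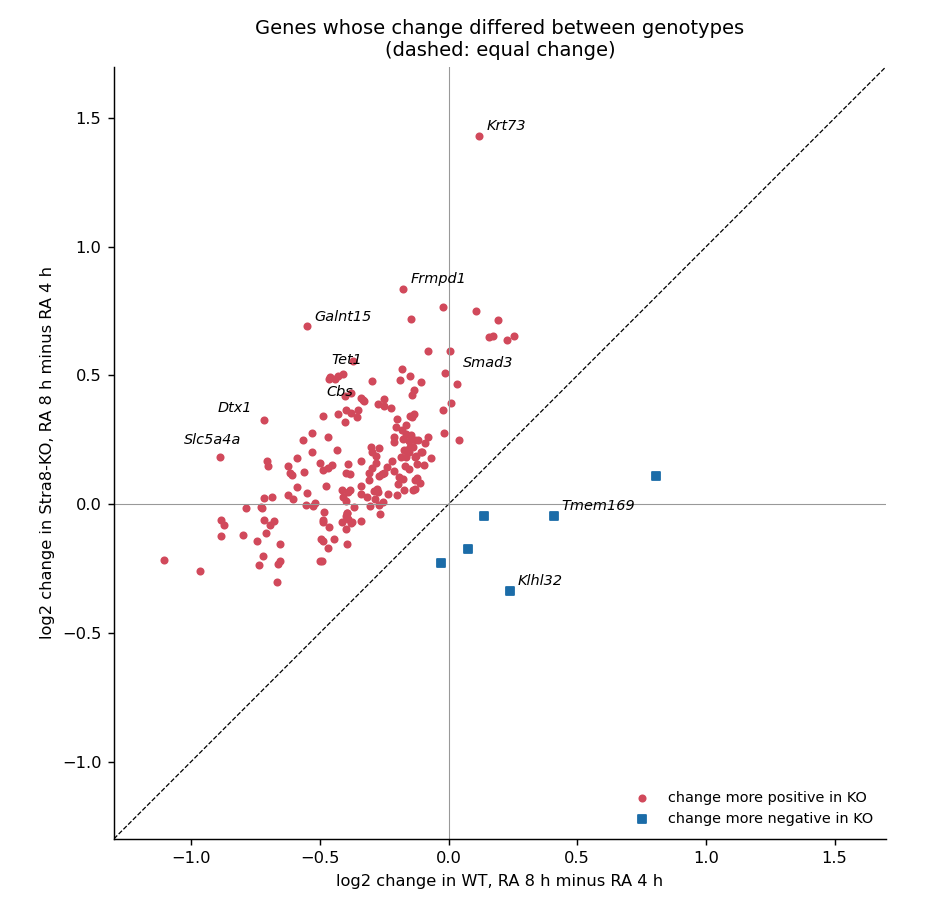
Log2 change between 4 and 8 h of RA in KO (y axis) against WT (x axis) for the 201 genes whose changes differed between the genotypes, red circles for the 195 with a more positive change in KO and blue squares for the 6 with a more negative one; the dashed line marks equal change. Most red circles lie left of 0, since WT fell for 146 of these genes, and Krt73 has the largest KO rise among them at 1.43.

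Of the 5 largest positive differences by the naming rule, Galnt15, Dtx1 and Cbs rose in KO and fell in WT, Frmpd1 rose in KO without passing the test in WT, and Slc5a4a fell in WT without passing in KO. Galnt15, a mucin-type glycosyltransferase gene, changed by 0.19, 0.49 and 1.39 in KO12, KO20 and KO21 and by -0.40, -0.64 and -0.62 in WT17, WT23 and WT25. All KO lines lay above all WT lines, with KO21 highest, and the difference was 1.24 (adjusted p = 0.0181). Dtx1, a Deltex ubiquitin ligase of the Notch pathway, changed by 0.37, 0.07 and 0.55 in KO and by -0.76, -0.51 and -0.87 in WT. Its difference of 1.04 had an adjusted p of 7.76e-05. Frmpd1, a FERM and PDZ domain protein, rose in KO by 0.85, 0.70 and 0.97 and changed by -0.14, -0.23 and -0.16 in WT, a difference of 1.01 (adjusted p = 0.0035). Cbs, the transsulfuration enzyme cystathionine beta-synthase, differed by 0.96 (adjusted p = 0.00725). Slc5a4a, of the glucose transporter family SLC5, differed by 1.07 (adjusted p = 0.00236). Its KO change of 0.18 did not pass the test, and in WT it fell by 0.89. In the other direction, Klhl32 differed by -0.58, Tmem169 by -0.45, Vps9d1 by -0.25, Btbd10 by -0.20 and Smarcal1 by -0.19, with adjusted p of 0.0122 to 0.0367.

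Smad3 rose by 0.54, 0.67 and 0.58 in the KO lines and changed by 0.01, -0.01 and 0.02 in the WT lines, a difference of 0.59 (adjusted p = 0.0185). The lines of a genotype lay close together and the genotypes far apart. Tet1 rose in KO by 0.50 and fell in WT by 0.43, a difference of 0.92 (adjusted p = 0.00484). The groups of Tet1 overlapped in KO. Chaf1b differed by 0.58, Cdk6 by 0.65, Dmrtb1 by 0.52, Bco1 by 0.74 and Myh11 by 0.72. Krt73, chosen after its values were seen, differed by 1.31. Kit rose by 0.90 in KO and changed by 0.38 in WT, and this difference of 0.52 did not pass the test (adjusted p = 0.423). The differences of Rec8 (0.06), Tcerg1l (0.25), Rarb (-0.16), Egr3 (0.10), Egr1 (0.17), Junb (-0.65) and Lars2 (-1.88) did not pass either, which does not show that these genes changed alike. In WT the sum of the 4 genes related to ribosomal RNA was 49.4 to 80.5 at 4 h and 63.3 to 97.3 at 8 h. It went down in each KO line. In WT it rose in WT23, from 49.4 to 97.3, and was lower at 8 h in WT17 and WT25. Its part in the 201 differences was not tested.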

How the data were processed

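The authors deposited 1 table of log2 values for 46983 genes in 42 libraries, scaled between libraries and with low genes drawn to their mean, and a base mean per gene on a linear signal scale, per the file headers. Per the submitters' processing notes, the build was GRCm38.p4 and the tools included DESeq and STAR 2.5.1b. The counter and its strand setting are not stated, so overlapping and antisense genes are uncertain. The labels list 43 samples, 1 of them a repeated label. Reads per library are not kept, so depth is unknown, and no interval that needs it is given.

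Genes at or above log2 of 10 in at least 3 libraries were tested, 16259 in all, with limma 3.58.1 (trend and robust options) in R 4.3.3. The fit held 36 libraries in 12 groups, all but the DMSO libraries at 4 h, with 1 mean per group and the culture line as a block, and had 20 residual degrees of freedom. The Benjamini-Hochberg method adjusted p-values over all genes tested, and 0.05 was the threshold. The labels give each line's number in every group. Deviations from the group means correlated at 0.562, 0.595 and 0.337 within KO12, KO20 and KO21, so the numbers were taken to pair the libraries. Between lines the correlations were -0.494 to -0.005. The deviations of 3 lines sum to 0 for each gene, so these negative values add no separate evidence. The fitting steps were tested on simulated data.

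The 102 genes named by rule are the 12 largest changes in each direction among called genes with the same sign in all 3 lines and a mean of at least log2 of 50 in the higher group, without predicted models; the 5 largest differences between genotypes in each direction; a set of RA and spermatogonial genes; and up to 3 members of each of 27 lists. Of these, 2 are not reported here, and all others are named. Other genes were chosen after their values were seen. The members and lists were chosen with earlier results of these data known. Alternatives left out the line term, single lines, the 24 h libraries or the value filter, used stricter filtering, quantile normalization, no trend or robust option, KO libraries only, the 6 libraries only, or all 42 libraries.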

Additional observations from a re-analysis of the deposited data

Results flagged for a closer look

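Among the named genes, 15 had a change between 4 and 8 h of RA that differed between KO and WT by the test of the difference itself (limma, adjusted p under 0.05). Differences are KO minus WT on the log2 scale, and no explanation was weighed. Of the genes named for the largest differences, Galnt15 differed by 1.24, Slc5a4a by 1.07, Dtx1 by 1.04, Frmpd1 by 1.01 and Cbs by 0.96, each with all 3 KO lines above all 3 WT lines. In the other direction, Klhl32 differed by -0.58, Tmem169 by -0.45, Vps9d1 by -0.25, Btbd10 by -0.20 and Smarcal1 by -0.19, each with all KO lines below all WT lines. Of the list members, Tet1, the 5-methylcytosine oxidase, differed by 0.92, and Myh11, the smooth muscle myosin heavy chain, by 0.72. Cdk6, the D-type cyclin kinase, differed by 0.65, Smad3 by 0.59 and the replication-linked histone chaperone subunit Chaf1b by 0.58. None of the first 10 kept its call without the line term or with all 42 libraries.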

How the results depend on the processing

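No called change or difference of a named gene changed sign. Of the named changes that were not called, those of Tmem169 (-0.16 to 0.08), Izumo1 (-0.07 to 0.19) and Spaca1 (-0.24 to 0.01) took both signs across the alternatives. The number of genes called between 4 and 8 h of RA in KO was 1033 without the line term (533 higher, 500 lower), beside 2799 with it. It was 576 with all 42 libraries (385 higher, 191 lower), and 1161 to 1231 when 1 line was left out (590 to 651 higher, 560 to 580 lower). The number of differences between genotypes, 201, became 4 without the line term, 3 with all 42 libraries and 63 to 180 without 1 line. Between untreated cultures and 8 h of DMSO, 2352 genes were called, beside 787 without the line term, 635 with all 42 libraries and 621 to 1566 without 1 line. WT had 3072 calls, and 1326, 1054 and 1646 to 2125 in the same order. Counts of KO calls between 2217 and 3387 came from the other alternatives (KO libraries only, the 6 libraries only, other filters, quantile normalization, no trend or robust option, without 24 h libraries). Of 102 named genes, 90 were called and 17 kept call and direction under every alternative run. Including genes named after their values were seen, 54 calls were lost without the line term, 61 with all 42 libraries and 45, 46 and 55 without KO12, KO20 and KO21. The cause of these losses was not tested; leaving out a line also leaves fewer samples. Culture time, unknown depth, 3 lines a group and the drawing in of low values limit every value.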
